A study of Mus musculus with 12 samples.

Results

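The receptors that bind corticosterone, the enzyme that regenerates it and 6 genes that it induces were followed in the brainstem of P15 mice, 9 genes among the 55418 in the count table. The genes were chosen by symbol: Nr3c1, the glucocorticoid receptor; Nr3c2, the mineralocorticoid receptor; Hsd11b1, 11β-hydroxysteroid dehydrogenase type 1; and the target genes Fkbp5, Tsc22d3, Sgk1, Zbtb16, Pdk4 and Errfi1. All 9 were found in the table and all 9 passed the filter on low counts in every comparison, with 257 to 8233 reads per gene and library.

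On GRCm38 with GENCODE M21, Nr3c1 is on chromosome 18 and Nr3c2 on chromosome 8 (76899442 to 77245012, plus strand). Hsd11b1 lies on chromosome 1 (193221634 to 193264075, minus strand), Fkbp5 on chromosome 17 (28399094 to 28517527, minus strand), Tsc22d3 on chromosome X (140539528 to 140600659, minus strand) and Sgk1 on chromosome 10 (21882184 to 21999903, plus strand). Zbtb16 lies on chromosome 9 (48654297 to 48836222, minus strand), Pdk4 on chromosome 6 (5483351 to 5496309, minus strand) and Errfi1 on chromosome 4 (150853919 to 150868892, plus strand). Values are sums over all annotated exons of a gene, untranslated exons included, so that isoforms and receptor protein were not measured.

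CFW mice, an outbred stock, were sequenced as 1 library each, with 3 females and 3 males per treatment and 12 mice in all. The mice are numbered within the labels, and values are given in that order, for saline females 4 to 6, morphine females 1 to 3, saline males 1 to 3 and morphine males 4 to 6. Morphine mice were injected s.c. with 15 mg/kg morphine 2 times per day from P1 to P14 and saline mice with saline on the same schedule, and tissue was taken 16 h after the last injection, in spontaneous withdrawal. Mice of every group had therefore been handled and injected throughout their first days. No label gives the dam, so that mice of 1 litter cannot be recognized, and the p values measure the spread between these mice.

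Glucocorticoids are released from the adrenal under the drive of the hypothalamus and pituitary, and rise with stress and opioid withdrawal in adult rodents. In the cell the glucocorticoid receptor waits in a complex with Hsp90 and its co-chaperones, moves to the nucleus when it binds hormone, and activates genes by binding, as a dimer, a short palindrome known as the glucocorticoid response element. The mineralocorticoid receptor binds the same hormone more tightly and the same DNA element. In rodents the early postnatal period is one of low corticosterone and weak response to stress, in which maternal care holds the axis quiet.

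Levels are given as CPM, the count scaled to library size with TMM factors. Library totals were 27850565 to 48097947 counts. The library labelled morphine male 6 did not match the other males. It had 379.9 CPM of Xist against 0.399 to 2.65 CPM in them, and 12.8 CPM of Ddx3y against 115 to 199 CPM. Nor did it match the females, which had 550 to 977 CPM of Xist and 0.0579 to 0.733 CPM of Ddx3y. The cause was not tested, and results are also given without this library. The library of saline male 3 stood apart on the main axis of variation described below. The labels give brainstem, whereas the deposited extraction text names spinal cords. All 11 brainstem markers exceeded 1 CPM in every library, and the 5 lower spinal cord markers summed to at most 0.0869 CPM. In bulk tissue, fewer cells of a type and less RNA per cell cannot be told apart. Of 4 markers of cerebellar granule cells 3 were higher after morphine by the thresholds used below in males and in both sexes together, and their summed level in males was 25.9 to 29.2 CPM after saline and 36.2 to 77.0 CPM after morphine. Of 5 choroid plexus markers 3 were higher in males, where they summed to 263 to 518 CPM after saline and 413 to 833 CPM after morphine. Estimates in males were below 0 for all 7 oligodendrocyte markers (median log2FC -0.27, 1 past the thresholds) and all 7 astrocyte markers (-0.19). So were 4 of 5 neuron markers (-0.29), beside -0.06 over all genes. In both sexes together all 5 meningeal fibroblast markers were below 0 (-0.33, 1 past the thresholds), and 1 of 7 endothelial markers was lower by the thresholds. In females all 5 meningeal fibroblast markers had estimates below 0 (median log2FC -0.47 beside -0.01 over all genes), of which Dcn passed the same thresholds, and they summed to 102 to 145 CPM after saline and 65.0 to 116 CPM after morphine. All 5 choroid plexus markers had estimates below 0 in females (median -0.83, with 0 past the thresholds), with sums of 10.1 to 469 CPM after saline and 29.2 to 163 CPM after morphine. Their part in the results below was not tested.

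Promoters were searched for the element that the receptor binds. RefSeq promoter windows of GRCm38.p6, each from 250 bases before to 50 bases after a start site, were found for 7 of the 9 genes, in 15 windows. The search was for the full palindrome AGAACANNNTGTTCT, a relaxed form GNACANNNTGTNC and a single arm of it, AGAACA, on both strands. The full palindrome contains the other forms, so that its windows are counted under all 3. It was present in 3 of all 32851 windows, or 0.00913%, and 1 of the 3 belonged to Sgk1. The relaxed form was present in 0.475% and the single arm in 19.0% of all windows. The Sgk1 window (chr10:21993640-21993939, plus strand) is printed because it alone among the 15 held the palindrome, which is in capitals at positions 21993701 to 21993715, with 174 bases between it and the start site of that window and 950 bases between it and the next start site of Sgk1.

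Sgk1: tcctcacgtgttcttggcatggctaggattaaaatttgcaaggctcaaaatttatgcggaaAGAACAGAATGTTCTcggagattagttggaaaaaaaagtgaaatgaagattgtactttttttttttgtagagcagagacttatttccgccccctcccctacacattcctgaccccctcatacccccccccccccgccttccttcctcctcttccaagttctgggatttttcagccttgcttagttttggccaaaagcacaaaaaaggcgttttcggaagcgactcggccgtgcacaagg

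No other window of the matched genes (Nr3c2, Hsd11b1, Fkbp5, Tsc22d3, Pdk4, Errfi1 and the other windows of Sgk1) held the full or the relaxed palindrome, which says only that these letters are not in these windows. Among 25 other glucocorticoid-induced genes, of which 23 had windows, 3 held the relaxed form, and their sites are set below each other with the palindrome in capitals. Mt1 (metallothionein 1) had it at chr8:94178995-94179007 on the plus strand, Fam107a at chr14:8309885-8309897 on the minus strand and Map3k6 at chr4:133240637-133240649 on the plus strand.
Mt1: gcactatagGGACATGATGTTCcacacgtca
Fam107a: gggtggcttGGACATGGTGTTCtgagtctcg
Map3k6: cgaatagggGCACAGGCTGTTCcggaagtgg
A match describes the sequence and does not show that the receptor bound there.

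The 9 genes were all expressed in the P15 brainstem, in an order in which several neighbors overlapped. Levels between genes were compared per kb of exon (CPM per kb, with exon lengths of GENCODE M21 on GRCm38). Tsc22d3, which encodes the glucocorticoid-induced leucine zipper GILZ, was highest at 42.6 ± 3.91 CPM per kb (SD, n = 12) and exceeded the next gene in all 12 mice, by 2.66 to 3.70 times. Errfi1 (a feedback inhibitor of EGF receptor signaling), Sgk1 (a kinase that regulates ion channels) and Nr3c1 followed at 14.3 ± 1.52, 14.3 ± 2.24 and 14.1 ± 1.99 CPM per kb. Ranges of these 3 genes overlapped, and Errfi1 exceeded Sgk1 in 4 and Sgk1 exceeded Nr3c1 in 5 of 12 mice. Nr3c2 at 5.80 ± 0.351 CPM per kb was below Nr3c1 in every mouse. Hsd11b1, which turns inactive 11-dehydrocorticosterone into corticosterone, had 5.25 ± 0.679 CPM per kb, and its range overlapped with that of Nr3c2. Pdk4 (a kinase that restrains the use of pyruvate) had 3.77 ± 0.529, Fkbp5 (a co-chaperone that lowers the affinity of the receptor for hormone) 2.78 ± 0.210 and Zbtb16 (a zinc finger repressor, also known as PLZF) 2.37 ± 0.468 CPM per kb. Neighbors among these low genes had overlapping ranges, although Pdk4 exceeded Fkbp5 in all 12 mice by this measure. The exon length joins all annotated exons of a gene and can exceed that of any transcript. It was 9.468 kb for Fkbp5, whose longest transcript has 3858 bases, and 4.251 kb for Hsd11b1, whose longest has 1978 bases. For Sgk1 it was 4.903 kb, beside 3096 bases in the longest transcript. The places of these genes and of their neighbors in the order therefore depend on the length used.

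**Figure D1:**
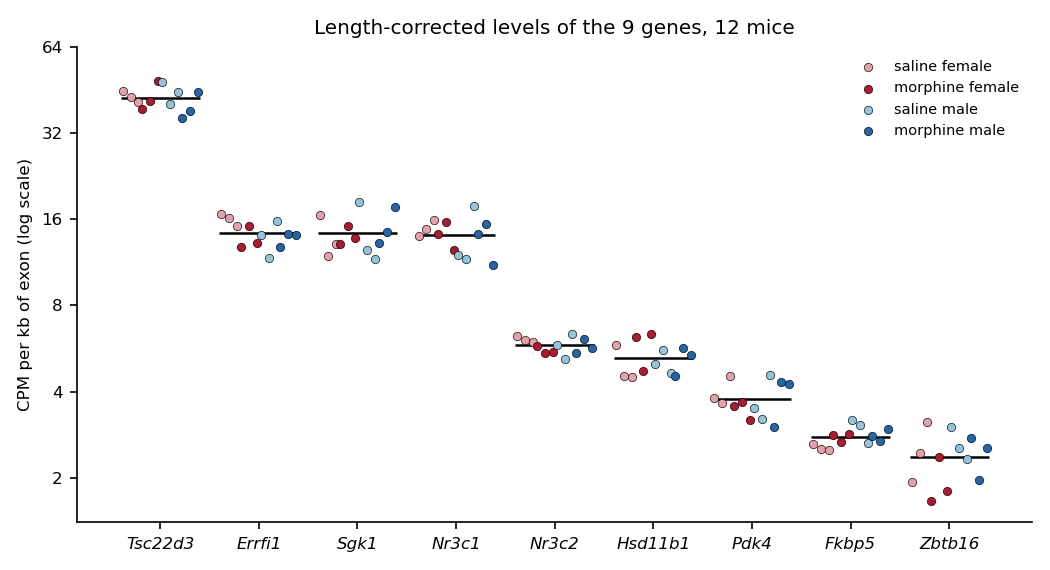
Length-corrected levels of the 9 genes in CPM per kb of exon on a log scale. Each point is 1 mouse, colored by group, and black lines are means over the 12 mice. Tsc22d3 at 36.1 to 48.8 CPM per kb lies above all other genes, and Nr3c1 at 11.1 to 17.8 lies above Nr3c2 at 5.20 to 6.34.

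The spread between mice was small in some of these genes and wider in others. The highest mouse had 1.22 times the level of the lowest for Nr3c2, 1.27 times for Fkbp5 and 1.35 times for Tsc22d3. It had 1.59 times for Sgk1, 1.61 times for Nr3c1 and up to 1.89 times for Zbtb16. The CV over the 12 mice was 6.05% for Nr3c2, 7.55% for Fkbp5, 9.18% for Tsc22d3 and 19.7% for Zbtb16. Biological coefficients of variation in the sex-combined fit were 0.116 to 0.194, all below the median of all genes, 0.199. The 9 genes lay at percentiles 50.9 to 94.6 of mean CPM, and the genes compared were not matched for level. The coefficients of variation of Nr3c2, Tsc22d3 and Fkbp5 were among the lowest, at percentiles 5.12, 7.48 and 8.27.

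The receptors were compared first. Nr3c1 had 108, 114 and 122 CPM in saline females and 109.6, 120.1 and 96.0 CPM in morphine females. In the males it had 92.6, 89.6 and 137 CPM after saline and 109, 119 and 85.1 CPM after morphine. Groups overlapped in both sexes, and the saline males held nearly the full range of the 12 mice. Nr3c1 passed no threshold between morphine and saline mice in the sex-combined analysis (log2FC = -0.05, SE 0.12, 95% confidence interval -0.31 to 0.20, adjusted p = 1.00 by the quasi-likelihood test of edgeR). None of the 9 genes was differentially expressed (DE) by the thresholds of the study, an unadjusted p under 0.05 and an absolute log2FC over 0.26, in that analysis, where 1.24% of all 19027 genes tested were DE. An adjusted p under 0.05 was reached by 0 genes with edgeR and by 0 with the Wald test of DESeq2, and 258 had an unadjusted p under 0.05. Of the 9 genes 0 had an unadjusted p under 0.05, against 1.36% of all genes.

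Nr3c2 had 40.5, 39.2 and 38.6 CPM in saline females and 37.4, 35.4 and 35.7 CPM in morphine females. The saline males had 37.6, 33.7 and 41.1 CPM and the morphine males 35.4, 39.4 and 36.6 CPM. All 3 morphine females were below all 3 saline females, whereas the males overlapped. The female difference gave an exact permutation p = 0.10, two-sided, the smallest that 3 against 3 mice allow, and the groups do not overlap in 5.75% of all genes in females, 8.93% in males and 0.042% in the sexes together. By edgeR the female log2FC was -0.13 (SE 0.09, interval -0.33 to 0.07, adjusted p = 1.00).

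The balance between the receptors was measured as the ratio of Nr3c2 to Nr3c1 counts within a library, which does not depend on library scaling. The mean log2 ratio was -1.53 ± 0.19 in 6 morphine mice and -1.51 ± 0.17 in 6 saline mice (SD). This difference of -0.02 was smaller than the spread within each group (exact permutation p = 0.857, two-sided). Per length, Nr3c1 exceeded Nr3c2 by 1.96 to 2.86 times in every mouse. The lowest value was that of the library labelled morphine male 6, and without it the difference was -0.08 (exact permutation p = 0.390).

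Hsd11b1 had 24.8, 19.3 and 19.2 CPM in saline females and 26.5, 20.1 and 27.0 CPM in morphine females. Saline males had 21.2, 23.7 and 19.8 CPM, and morphine males 19.3, 24.2 and 22.9 CPM. Over the 12 mice Hsd11b1 had r = -0.68 with the summed meningeal fibroblast markers, as a description. Only 2 morphine mice, both female, were above the highest saline mouse. The log2FC was 0.13 (SE 0.11, interval -0.12 to 0.37, adjusted p = 1.00) in both sexes together, 0.21 (SE 0.15) in females and 0.01 (SE 0.16) in males. H6pd, which supplies Hsd11b1 with cofactor, was at 4.85 to 10.6 CPM, whereas Hsd11b2, which inactivates corticosterone, had at most 0.197 CPM in any library and did not pass the filter.

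**Figure D2:**
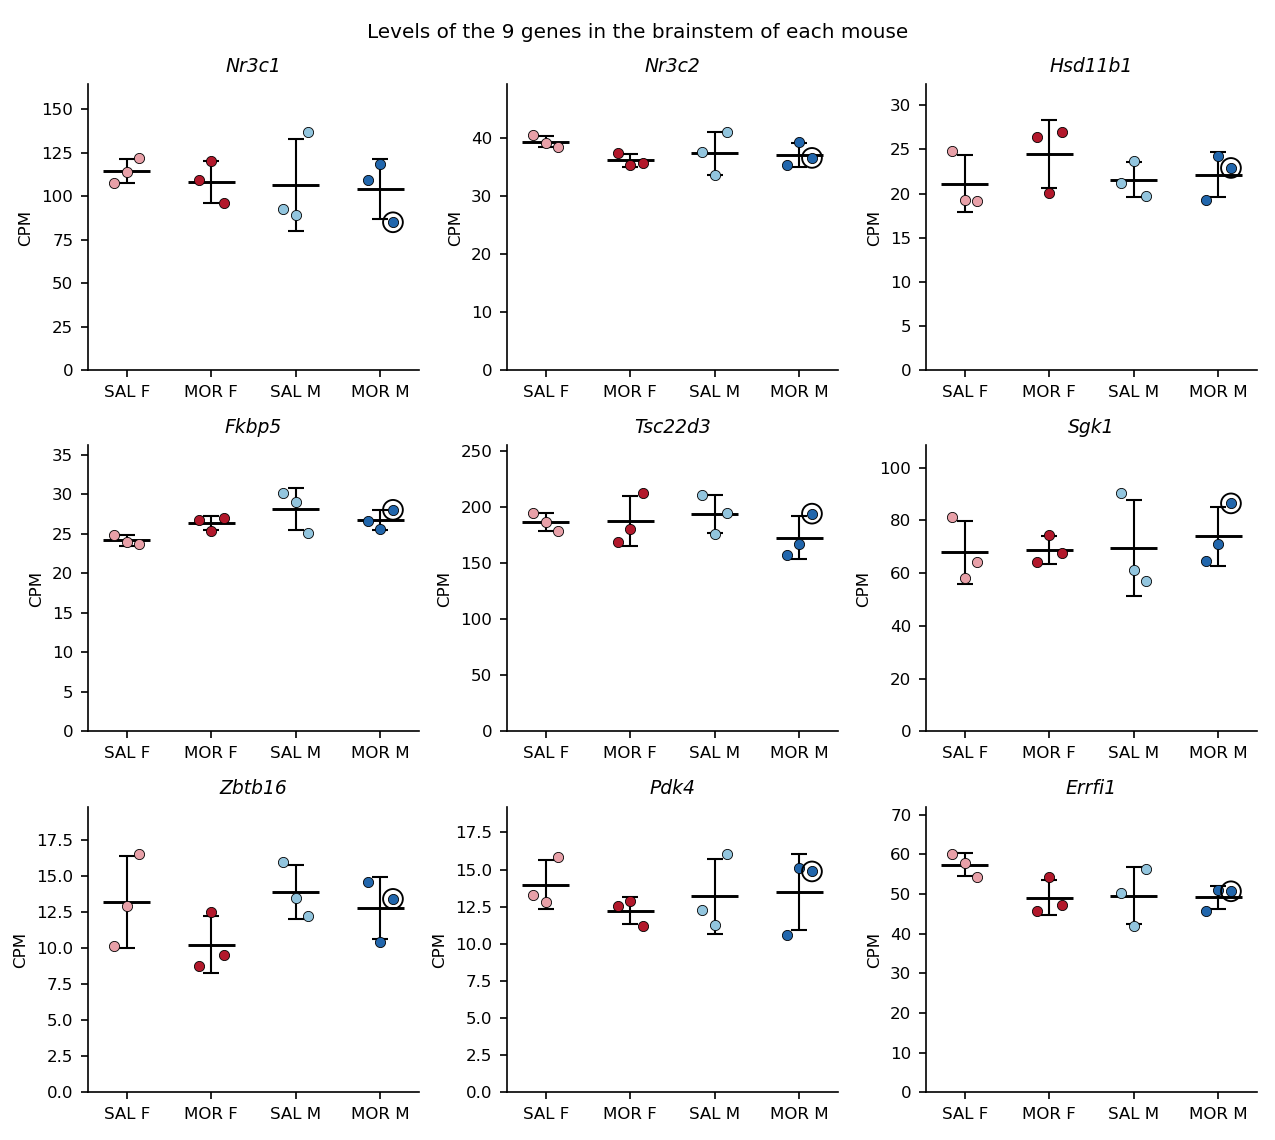
CPM of the 9 genes in each mouse by group (SAL, saline; MOR, morphine; F, females; M, males). Points are mice, horizontal lines are group means and bars are the SD (n = 3), and a ring marks the library labelled morphine male 6. In females, Nr3c2 and Errfi1 of all 3 morphine mice lie below and Fkbp5 lies above those of the saline mice, and in males all 9 genes overlap.

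Fkbp5, a gene that rises quickly with the hormone and feeds back on its receptor, had 24.9, 23.9 and 23.7 CPM in saline females and 26.7, 25.3 and 26.9 CPM in morphine females. All morphine females were above all saline females (exact permutation p = 0.10, two-sided), where groups do not overlap in 5.75% of all genes. Males overlapped, with 30.1, 29.0 and 25.1 CPM after saline and 26.6, 25.5 and 28.0 CPM after morphine. The log2FC was 0.12 (SE 0.09, interval -0.09 to 0.33) in females and -0.10 (SE 0.14, interval -0.43 to 0.24) in males, where scaling by total counts turned it to 0.03. The test of the difference between the sexes, males minus females, gave -0.20 (SE 0.16, interval -0.54 to 0.15, adjusted p = 0.985 by edgeR). Without saline male 3 that difference was -0.29 (SE 0.13, interval -0.57 to -0.02, adjusted p = 0.180) and passed both thresholds, beside 4695 of 19472 genes that then did. With all mice 2.94% of 19027 genes were DE in this test, none of the 9 among them.

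Tsc22d3 had 194, 186 and 178 CPM in saline females and 169, 180.2 and 212 CPM in morphine females. Its levels were 210.1, 176 and 194 CPM in saline males and 157, 167 and 194 CPM in morphine males. Groups overlapped in both sexes. The log2FC was -0.08 (SE 0.08, interval -0.26 to 0.10, adjusted p = 1.00) in both sexes together, and -0.19 (SE 0.14, interval -0.52 to 0.14) in males, where 2 of 3 morphine mice were below the lowest saline mouse.

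Sgk1, the gene with the palindrome printed above, had 81.3, 58.2 and 64.1 CPM in saline females and 64.3, 74.5 and 67.6 CPM in morphine females. In the males it had 90.3, 61.3 and 56.9 CPM after saline and 64.7, 70.9 and 86.5 CPM after morphine. High mice occurred in 3 of the 4 groups, and the morphine mice lay within the saline range. Its log2FC was 0.06 (SE 0.13, interval -0.22 to 0.33, adjusted p = 1.00), and leaving out the library labelled morphine male 6 gave -0.00 (SE 0.13).

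Errfi1 was the only 1 of the 9 genes with an unadjusted p under 0.05 in any comparison. Saline females had 60.0, 57.7 and 54.29 CPM and morphine females 45.8, 54.25 and 47.3 CPM, so that the groups just failed to overlap (exact permutation p = 0.10, two-sided). The female groups do not overlap in 5.75% of all genes. In males the levels were 50.3, 42.0 and 56.3 CPM after saline and 45.8, 51.1 and 50.7 CPM after morphine. The female log2FC of -0.23 (SE 0.10, interval -0.45 to -0.01) stayed within the fold threshold of 0.26 and had an adjusted p = 1.00 by edgeR. In the females-only analysis 1.81% of 18109 genes were DE and 1.89% had an unadjusted p under 0.05. The unadjusted p was no longer under 0.05 without saline female 4, saline female 5, morphine female 1 or morphine female 3 (log2FC -0.22 to -0.18) or in the fit of all 12 mice (-0.22). It stayed under 0.05 without saline female 6 (-0.26), and without morphine female 2, the mouse nearest to the saline group, the log2FC was -0.31 and Errfi1 passed both thresholds. So did 690 of 18502 genes in the fit without morphine female 2.

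Zbtb16 had the largest fold of the 9 genes. Levels were 10.2, 12.9 and 16.5 CPM in saline females and 8.74, 12.5 and 9.49 CPM in morphine females. In the males they were 15.95, 13.4 and 12.2 CPM after saline and 14.6, 10.4 and 13.4 CPM after morphine. The groups overlapped in both sexes, with 2 morphine females below the lowest saline mouse. Zbtb16 had r = 0.58 with the summed meningeal fibroblast markers over the 12 mice, as a description. Other members had values farther from 0 with other marker sums. Fkbp5 had r = 0.75 with red blood cell and -0.70 with brainstem markers. Errfi1 had 0.70 with brainstem markers, Nr3c1 0.69 with pericyte markers and Tsc22d3 0.69 with neuron markers. None of these relations was tested. The log2FC was -0.38 (SE 0.20, interval -0.83 to 0.08, adjusted p = 1.00) in females, -0.14 (SE 0.20, interval -0.60 to 0.32) in males and -0.24 (SE 0.15, interval -0.56 to 0.08) in both together. The call in females turned on single mice. Zbtb16 passed both thresholds without saline female 4 (log2FC = -0.54) and without morphine female 2 (log2FC = -0.54), and Hsd11b1 did so in the same fits (0.33 in each). In these fits 1482 of 18631 and 690 of 18502 genes were DE. The smallest adjusted p of the 9 genes was 0.582 in the former fit and 0.954 in the latter.

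Pdk4 ranged from 11.3 to 16.04 CPM in saline mice and from 10.6 to 15.1 CPM in morphine mice, with 2 morphine mice below the lowest saline mouse. Its log2FC was -0.20 (SE 0.13, interval -0.50 to 0.09) in females and 0.01 (SE 0.22, interval -0.52 to 0.54) in males.

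Estimates in males followed the scaling of the libraries, since scaling by total counts moved the median log2FC of all genes from -0.06 to 0.06 and Nr3c1, Nr3c2 and Errfi1 from -0.05, -0.04 and -0.04 to 0.07, 0.09 and 0.09. In the males-only analysis 0 of the 9 genes was DE and none had an unadjusted p under 0.05, whereas 2.99% of 18166 genes were DE. Tsc22d3 had the smallest p of the 9, with an adjusted p = 1.00. Leaving out saline male 3 raised the number of DE genes in males from 543 to 5341 and the number with an adjusted p under 0.05 from 0 to 2141, and still 0 of the 9 were DE. Then Nr3c1 had a log2FC of 0.20 (SE 0.13, interval -0.09 to 0.49, adjusted p = 0.326), Pdk4 one of 0.21 (SE 0.18, adjusted p = 0.461) and Fkbp5 one of -0.14 (SE 0.11, adjusted p = 0.434). Without the library labelled morphine male 6, 462 genes were DE and Tsc22d3 had a log2FC of -0.29 (SE 0.16, adjusted p = 1.00).

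**Figure D3:**
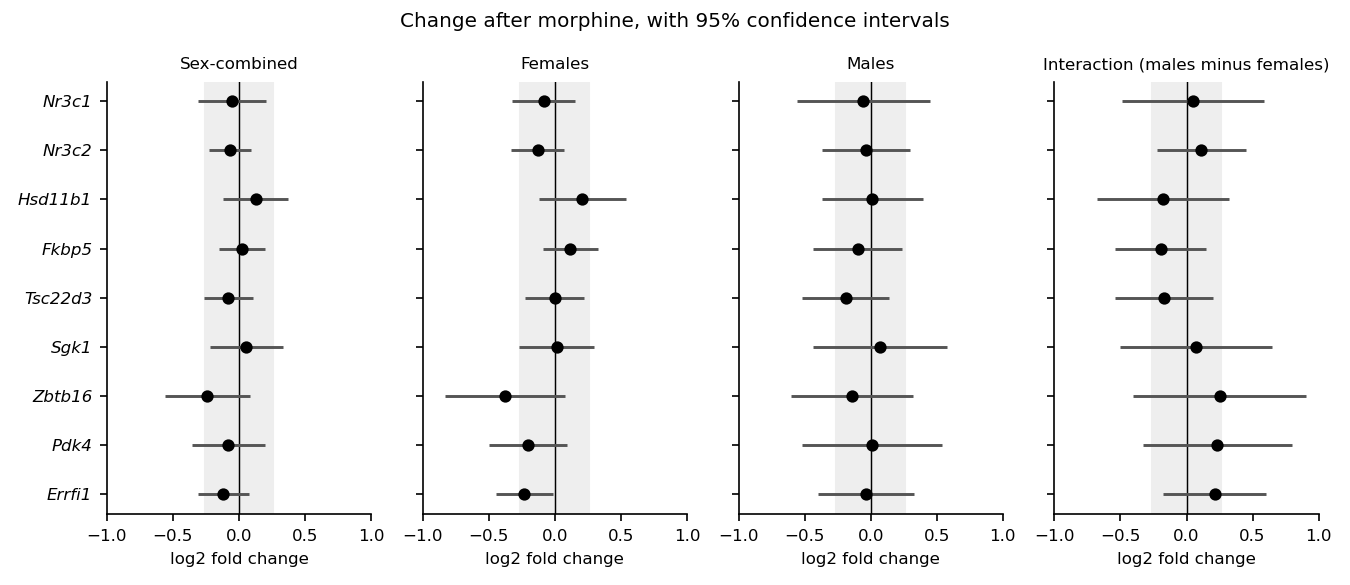
Log2FC of the 9 genes, morphine against saline, in the sex-combined, females-only and males-only fits, and the interaction as the change in males minus that in females. Points are estimates, lines are 95% confidence intervals of edgeR and the gray band is the fold threshold of ± 0.26. Every interval includes 0 but that of Errfi1 in females, -0.45 to -0.01.

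How large a change these data could have missed is given by the intervals. In the sex-combined analysis the 9 intervals lay between -0.56 and 0.37, the lower end being that of Zbtb16 and the upper that of Hsd11b1. Both limits of Nr3c2 and of Fkbp5 were within 0.26. In fold, the intervals were 0.808 to 1.15 for Nr3c1, 0.903 to 1.15 for Fkbp5, 0.833 to 1.07 for Tsc22d3 and 0.859 to 1.26 for Sgk1. In males they were wider, from 0.741 to 1.18 for Fkbp5 and from 0.737 to 1.49 for Sgk1. The median log2FC of the 9 genes was -0.07, beside -0.02 over all genes, and their median absolute log2FC was 0.08, equal to the 0.08 of all genes. Estimates were above 0 for 3 genes (Hsd11b1, Fkbp5 and Sgk1) and below 0 for 6 in the sex-combined analysis.

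Females and males were compared with treatment as a covariate. None of the 9 genes was DE by sex, where 3.97% of 19027 genes were. The smallest p was that of Fkbp5, at 25.2 CPM in females and 27.4 CPM in males (log2FC of females against males -0.12, SE 0.08, interval -0.29 to 0.06, adjusted p = 0.738). Nr3c1 had a mean of 112 ± 9.46 CPM in females and 105 ± 20.1 CPM in males (SD, n = 6 each; log2FC 0.08, SE 0.12, adjusted p = 0.838). Without the library labelled morphine male 6 this log2FC was 0.03 (SE 0.12, adjusted p = 0.986) and without saline male 3 it was 0.16 (SE 0.09, adjusted p = 0.297). Fkbp5 had -0.11 (SE 0.09, adjusted p = 0.965) and -0.17 (SE 0.08, adjusted p = 0.167) in these fits, and none of the 9 genes was DE by sex in either.

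Whether the receptors, the enzyme and the targets varied together from mouse to mouse was asked over the 36 pairs of the 9 genes and the 12 mice (log2 CPM, permutation test with 100000 resamples). Pairs of the best-known targets did not pass the test. Fkbp5 and Sgk1 had Pearson r = 0.46 (Spearman rho = 0.42, permutation p = 0.13, adjusted p = 0.361), Sgk1 and Tsc22d3 r = 0.40 (rho = 0.30, permutation p = 0.201, adjusted p = 0.482) and Fkbp5 and Tsc22d3 r = 0.23 (rho = 0.10, permutation p = 0.465, adjusted p = 0.793). Among pairs of the 6 targets the highest r was that of Pdk4 and Errfi1 (r = 0.61, rho = 0.71, permutation p = 0.0374, adjusted p = 0.224). In the library labelled morphine male 6, 5 of the 6 targets were above their own median, and in morphine female 1 only 1 was, the extremes of the 12 mice. Saline male 1 had the highest Fkbp5 and Sgk1 of all mice, and without it r of Fkbp5 and Sgk1 was 0.21.

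Of the 36 pairs, 3 had an adjusted p under 0.05 by Pearson r and 21 had an r above 0. By Spearman rho 4 pairs did, the same 3 and Fkbp5 with Errfi1. These 2 targets ran against each other (rho = -0.79, adjusted permutation p = 0.0472, and r = -0.69, adjusted permutation p = 0.0999). Nr3c1 and Fkbp5 ran against each other (r = -0.80, rho = -0.78, permutation p = 0.0019, adjusted p = 0.0343), and r was -0.86 without the 2 mice farthest from the median of Nr3c1. Nr3c2 rose with Errfi1 (r = 0.79, rho = 0.80, permutation p = 0.00282, adjusted p = 0.0343), with r = 0.66 without the 2 farthest mice. Zbtb16 fell as Hsd11b1 rose (r = -0.79, rho = -0.76, permutation p = 0.00286, adjusted p = 0.0343), with r = -0.61 without the 2 farthest mice, and the part in this of the meningeal markers named above was not tested. With the mean of each group of treatment and sex taken away r of the 3 pairs was -0.94, 0.72 and -0.75. Only the first kept an adjusted p under 0.05. With scaling by total counts r was -0.71, 0.79 and -0.75 and none of the 36 pairs had an adjusted p under 0.05. The number of such pairs moved between 0 and 5 when 1 mouse was left out. It was 0 without any of saline male 2, saline females 4, 5 and 6, morphine females 1 and 3, and morphine males 4 and 5, 2 without saline male 3, 3 without morphine female 2, 4 without saline male 1 and 5 without morphine male 6.

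The relation of Nr3c1 and Fkbp5 ran along an axis that many genes shared. With group means taken away, the first principal component of log2 CPM held 59.5% of the variance between mice of a group, and saline male 3 scored 0.733 on it, beside -0.397 to 0.202 in the other mice. Nr3c1 followed this score with r = 0.93 and Fkbp5 with r = -0.95, as descriptions over 12 mice, and 40.1% of all 19027 genes had an absolute r over 0.8. Across genes, r with the score went with the GC content of the longest transcript (Spearman rho = -0.77, n = 19027) more than with its length (rho = 0.22), and genes are not independent replicates. The longest Nr3c1 transcript has 42.2% GC, lower than in all but 15.5% of genes, and that of Fkbp5 51.6%, at percentile 63.2. Tsc22d3 (r = -0.21) and Zbtb16 (r = -0.06) were the least related to the score. With the component taken away, r was -0.49 for Nr3c1 and Fkbp5, 0.59 for Nr3c2 and Errfi1, and -0.89 for Zbtb16 and Hsd11b1. Pairs of targets then had r from -0.09 (Zbtb16 and Errfi1) to 0.82 (Sgk1 and Errfi1). Of the 36 pairs 2 had an adjusted permutation p under 0.05. What the component stands for was not tested.

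**Figure D4:**
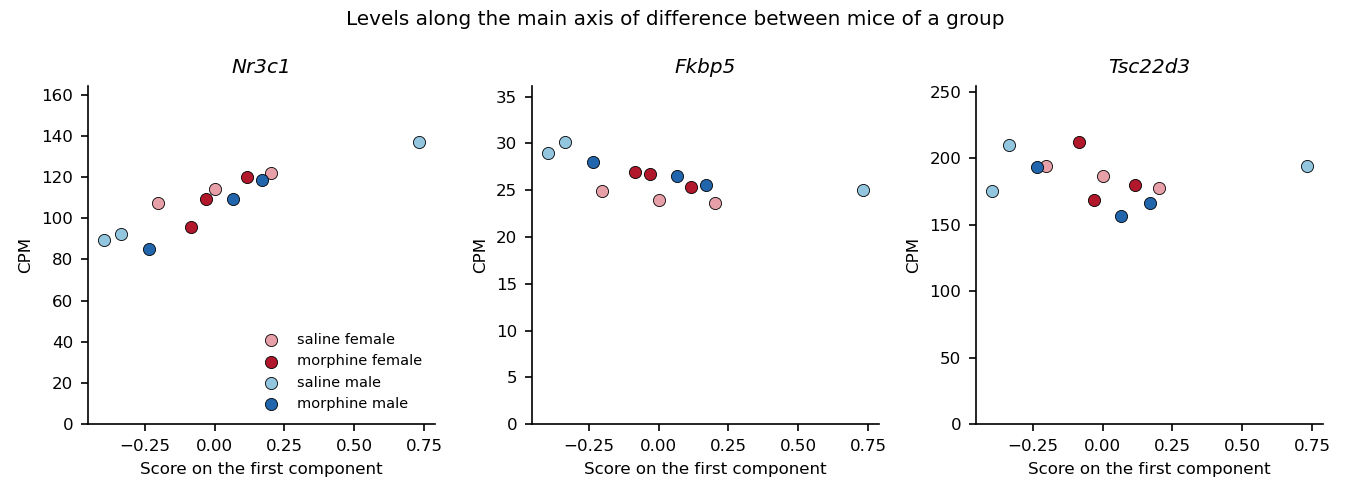
CPM of Nr3c1, Fkbp5 and Tsc22d3 against the score of each mouse on the first principal component of all genes after group means were taken away. Each point is 1 mouse, colored by group, and scores have no unit. Nr3c1 rises and Fkbp5 falls along the score, and saline male 3 is the point at 0.733.

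With this component as a covariate the treatment estimates of the 9 genes hardly moved while their errors shrank. In the sex-combined analysis the SE of Nr3c1 was 0.05 in place of 0.12 (log2FC = -0.04, interval -0.16 to 0.07) and that of Fkbp5 0.06 in place of 0.08 (log2FC = 0.03, interval -0.09 to 0.15), and 0 of the 9 genes were DE. In females Zbtb16 passed both thresholds in this fit (log2FC = -0.36, SE 0.11, adjusted p = 0.298), beside 939 of 18109 genes that did. The component was drawn from the same residual variation and chosen after the data were seen, so that these p values are too small.

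The genes nearest to 4 members by r over the 12 mice are given as a description. For Nr3c1 these were Usp45, Cpeb2, Adam10, Cnot6 and Pbrm1 (r = 0.98 to 0.99), for Fkbp5 Zfp213, Ppp1r26, Zfand2b and Fads3 (r = 0.95 to 0.96), for Sgk1 Rcan3, Rpl32l, Zfp366, Maff and Tvp23bos (r = 0.86 to 0.91), and for Tsc22d3 Actr3b, Llph, Gm49785, Cdr2 and Rbm8a (r = 0.82 to 0.92). None is a member of the pathway lists. For Fkbp5, Sgk1 ranked only 5711 of 19026 genes and Tsc22d3 7166. Nr3c2 and Errfi1 were closer, with Errfi1 at rank 65 of 19026 for Nr3c2.

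The wider pathway was followed in 5 lists. Of 16 chaperones and co-chaperones of the receptor all were tested and 0 were DE in the sex-combined, female or male analysis. The 3 highest per length were Hsp90ab1, Hspa8 and Hsp90aa1, the Hsp90 and Hsc70 proteins that fold the receptor, at 491, 237 and 206 CPM per kb, and their log2FC was 0.00, 0.00 and -0.05 (SE 0.10, 0.09 and 0.10). In males 15 of the 16 had estimates below 0, with a list median of -0.18 beside -0.06 over all genes. In both sexes together 14 did (median -0.08 beside -0.02) and in females 11 (-0.04 beside -0.01). Scaling by total counts moved the median of all genes in males to 0.06, and the list median was not taken with that scaling. Of 14 coregulators, with Smarca4, Ppargc1a and Ncor1 highest at 14.05, 13.9 and 12.2 CPM per kb, 0 were DE in these analyses. Ncoa6, a coactivator, passed the thresholds in the interaction (0.36, SE 0.16, adjusted p = 0.985).

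For steroid synthesis, metabolism and transport, 7 of 11 genes were tested and 0 were DE with treatment. The highest per length were Srd5a1 (5α-reductase) at 13.6, Abcb1a (a drug and steroid exporter of brain vessels) at 6.98 and Star (cholesterol carrier of steroid synthesis) at 2.79 CPM per kb. In both sexes together Abcb1a had a log2FC of -0.17 (SE 0.08, interval -0.33 to 0.00, adjusted p = 1.00). Of 8 inflammatory genes that glucocorticoids repress, 4 were tested and 0 were DE. Vcam1, Icam1 and Nos2 were highest, at 6.47, 0.522 and 0.348 CPM per kb, while Il1b, Il6, Tnf and Ccl2 did not pass the filter.

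The 25 other genes that glucocorticoids induce were all tested. In both sexes together 0 were DE, with a median of -0.05 beside -0.02 over all genes. In females 1 was DE and higher, Mt1, and in males 1 was DE and lower, Rhob (a small GTPase). Mt1, whose relaxed palindrome is printed above, had 65.9, 54.8 and 37.7 CPM in saline females and 78.7, 62.2 and 69.7 CPM in morphine females (log2FC = 0.41, SE 0.17, adjusted p = 1.00). In males it had 173, 195 and 29.4 CPM after saline and 41.0, 45.3 and 84.6 CPM after morphine (log2FC = -1.24, SE 0.65, adjusted p = 1.00). Without saline male 3 the male log2FC of Mt1 was -1.67 and passed both thresholds, beside 5341 of 18652 genes that then did. Saline males 1 and 2 were far above the other 10 mice and saline male 3 was below all of them. The female call ended without saline female 5 (log2FC 0.44), saline female 6 (0.22), morphine female 1 (0.32) or morphine female 3 (0.41). Rhob had 278, 326 and 220.1 CPM in saline males and 194, 208 and 216 CPM in morphine males, which did not overlap (log2FC = -0.44, SE 0.16, adjusted p = 1.00). The groups do not overlap in 8.93% of all genes in males. Rhob missed the threshold whenever 1 male other than saline male 3 was left out (log2FC -0.49 to -0.30). The highest of the list per length were Glul (glutamine synthetase) at 241, Rhob at 101 and Mt1 at 62.7 CPM per kb. Glul had a log2FC of 0.03 (SE 0.08) in females and -0.22 (SE 0.16) in males.

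**Figure D5:**
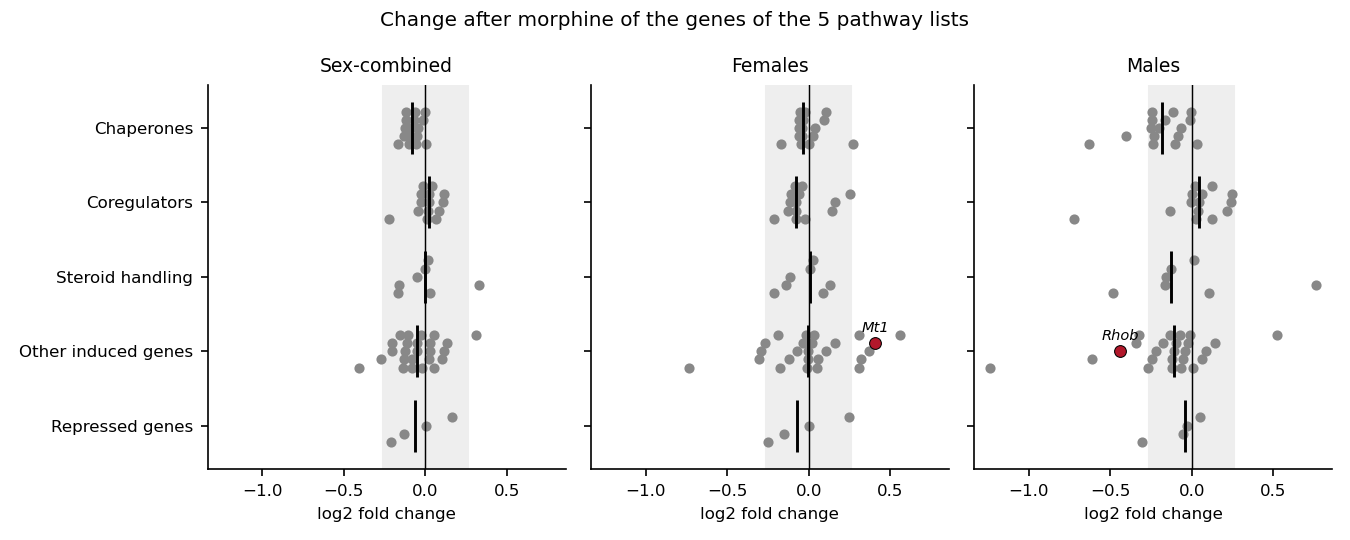
Log2FC of the tested genes of the 5 lists, morphine against saline, in the sex-combined, females-only and males-only analyses. Gray points are genes that are not DE, red points are DE genes, vertical bars are list medians and the gray band is the fold threshold. Mt1 in females at 0.41 and Rhob in males at -0.44 are the DE genes.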

How the data were processed

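The 12 poly-A libraries were single-end reads of 100 bp. Per the paper's methods, the authors trimmed with Trimmomatic, aligned to mm10 with STAR and counted reads over exons with featureCounts. The paper calls the table that the authors deposited normalized, but its values are whole numbers whose totals range from 27850565 to 48097947 between libraries, and they were treated as raw counts per gene. Versions and the strand setting are not given in the sources used here, so that overlapping genes on opposite strands may share reads. Groups came from the sample labels. No sample column was left out for want of a label.

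Counts were tested with the edgeR (version 4.0.16, R 4.3.3) quasi-likelihood test, with TMM factors and filterByExpr, in both sexes together with sex as a covariate, in each sex, for the interaction and for sex with treatment as a covariate. A gene was called DE at p under 0.05 and an absolute log2FC over 0.26, the thresholds of the study, and p values were also adjusted by Benjamini-Hochberg over all genes. Printed adjusted p values of 1.00 are rounded. Exact permutation tests and correlations used log2(CPM + 0.5). The 9 genes and the lists were chosen with earlier results of these data known. Every one of the 9 was named, and of each list the 3 highest per length and the genes that were DE; Abcb1a, H6pd, Hsd11b2, Ncoa6 and the genes listed as not passing the filter were also named for other reasons or after their values were seen. For 4 of the 9 genes the nearest genes by correlation were named, of which 1 is not reported here. The tests were checked on simulated counts. Alternatives were DESeq2 1.42.0, other scalings and filters, other covariates and leaving out each mouse.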

Additional observations from a re-analysis of the deposited data

Results flagged for a closer look

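Among 28 genes tested for a mouse far from the other 5 of its treatment, in 56 groups, 2 values stood apart by Dixon's criterion, which chance alone reaches in about 1 of 20 groups. Srd5a1 was at 23.8 CPM in morphine male 4, the lowest of the 6 morphine mice. Vcam1 was at 45.2 CPM in the library labelled morphine male 6, also the lowest of the 6.

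In the interaction test of edgeR 2 genes of the 5 pathway lists passed the thresholds, where 2.94% of all genes did. The lists had 16, 14, 7, 25 and 4 genes tested, and none of these had an adjusted p under 0.05. For Mt1 the difference, males minus females, was -1.63 (SE 0.73, adjusted p = 0.985), and it lay between -2.12 and -1.24 when 1 mouse was left out, passing the threshold only without saline male 3, saline female 4 or morphine male 6. For Ncoa6 it was 0.36 (SE 0.16, adjusted p = 0.985), between 0.29 and 0.44 when 1 mouse was left out, passing only without saline male 3, morphine female 2 or morphine male 6. In this test 559 of 19027 genes were called at these thresholds. Without saline male 3 they were 4695 of 19472, and without saline female 4 they were 952 of 19481. Leaving out morphine female 2 gave 856 of 19430 and leaving out morphine male 6 gave 663 of 19529.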

How the results depend on the processing

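In the sex-combined and the males-only comparisons 0 of the 9 genes were called under any of the alternatives run. In females 1 was called with no filter on low counts and 1 with the first principal component as a covariate, both Zbtb16, and 0 to 3 when 1 mouse was left out; for the interaction and for females against males this was 0 to 1. The pairs of genes with an adjusted p under 0.05 by Pearson r numbered 0 with total counts and 1 with group means taken away. They numbered 0 to 5 when 1 mouse was left out, and the difference in receptor ratio was then -0.081 to 0.028.

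With no filter on low counts, where more genes are tested, 754, 1094, 985, 1665 and 2321 genes were called in both sexes together, females, males, the interaction and females against males. With the component as a covariate these were 374, 939, 2749, 3018 and 2203. At least 10 counts in every library left 154 in both sexes together, and the fit of all 12 mice gave 218 in females. When 1 mouse was left out the counts were 198 to 479, 208 to 1482, 253 to 5341, 290 to 4695 and 358 to 3990, the highest without saline male 3 except in females, where it was without saline female 4. The cause was not tested. Scaling by total counts moved the share of called genes that were higher from 49.4% to 71.5% in both sexes together, from 64.3% to 91.3% in males and from 54.7% to 81.2% in the interaction.

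Of the log2FC values that changed direction, the largest were those of Zbtb16 (-0.14) and Fkbp5 (-0.10) in males. Tsc22d3 in females was 0.00395 with total counts, 0.00214 with at least 10 counts and 0.00608 in the fit of all 12 mice. In males with total counts Nr3c1 was 0.071, Nr3c2 0.087, Fkbp5 0.029 and Errfi1 0.088. When 1 mouse was left out, both sexes together gave -0.10 to 0.027 for Nr3c1, -0.013 to 0.062 for Fkbp5 and -0.018 to 0.16 for Sgk1. Females gave -0.082 to 0.16 for Sgk1 and -0.10 to 0.068 for Tsc22d3. Males gave -0.17 to 0.20 for Nr3c1, -0.11 to 0.067 for Nr3c2, -0.024 to 0.10 for Hsd11b1, -0.070 to 0.29 for Sgk1, -0.24 to 0.042 for Zbtb16, -0.096 to 0.21 for Pdk4 and -0.15 to 0.099 for Errfi1. The interaction gave -0.060 to 0.25 for Nr3c1 and -0.096 to 0.31 for Sgk1. Females against males gave -0.020 to 0.045 for Nr3c2, -0.014 to 0.10 for Hsd11b1, -0.16 to 0.029 for Sgk1, -0.022 to 0.070 for Tsc22d3 and -0.12 to 0.021 for Pdk4.

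Libraries of the same number did not deviate together (r of their deviations -0.47 to 0.20 over 6 numbers). These values cannot decide whether the numbers pair mice. Libraries of the same number differed in sex and treatment, many genes shared the main axis of variation, and no label gives the dam. A fit with the replicate number as a block called 189 genes and 0 of the 9, beside 235 and 0 without it. The least covered of the 9 genes had 257 counts in its lowest library.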
